A study of Mus musculus with 16 samples.

Results

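The 34 genes described here encode the chaperones, folding enzymes, stress sensors and quality-control machinery of the endoplasmic reticulum (ER), the compartment in which secreted and membrane proteins are folded. They were chosen by name from the 56268 genes in the expression table and followed over all 16 RNA-seq libraries of mouse colonic epithelial cells. By role they comprise 11 chaperones and co-chaperones, 4 protein disulfide isomerases, 7 stress sensors and transcription factors, 8 genes of ER-associated degradation (ERAD) and 4 of protein translocation and export. Of the 34, 33 reached at least 1 FPKM (fragments mapped to a gene, scaled to its length and to the library's depth) in 4 or more libraries, as did 13255 genes in all. Derl3, a derlin of the ERAD channel, did not, at 0.203 to 1.26 FPKM from 6 to 43 reads a library.

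The study asked how loss of Rictor, the defining subunit of the kinase complex mTORC2, changes gene expression in the colonic epithelium during chemically induced colitis. Control mice carried Villin-Cre alone and conditional knockout (cKO) mice carried floxed Rictor with Villin-Cre, so every group carried the recombinase, which the Villin promoter drives in intestinal epithelium. Each genotype was given either 3% dextran sulfate sodium (DSS) or plain drinking water. DSS is a polymer that injures the colonic lining when drunk. Each of the 4 groups had 4 libraries. The labels give neither age nor sex, and do not say whether the 4 libraries of a group came from separate animals. The p-values therefore set differences between groups against the spread between libraries, which may not be that between animals.

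Proteins enter the ER through the Sec61 channel, are glycosylated and folded by the chaperone BiP (Hspa5) with its partners, and receive disulfide bonds from isomerases. When unfolded protein accumulates, the sensors IRE1 (Ern1, Ern2), PERK (Eif2ak3) and ATF6 start the unfolded protein response, in which spliced XBP1 and cleaved ATF6 raise transcription of chaperone and ERAD genes. In the colon this machinery is known above all from goblet cells, which fold and export large amounts of mucin.

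The best-known promoter target of this response is the ER stress element (ERSE), a CCAAT box and a CCACG half-site separated by a fixed spacer, searched here as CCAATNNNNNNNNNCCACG on both strands. Of the 34 genes, 27 matched a RefSeq promoter (GRCm38.p6, 250 bases before to 50 after the start site), giving 30 promoters. Atf6, Creb3l1, Derl1, Ern2, Hyou1, Manf and Sec61a1 had no entry. An ERSE match lay in 9 of these 30 promoters, each of a different member, against 39 of all 32851 promoters (0.119%). Shown are the promoters of the 4 tested members with a match that had the smallest p-values for DSS in either genotype, to place the element beside the genes whose values follow. Each run is the 250 bases upstream of the start site, 5′ to 3′ on the gene's strand, with the 2 half-sites in capitals. Their positions are chr19:6046326-6046575 (+ strand) for Syvn1, chr2:34771840-34772089 (+) for Hspa5, chr14:118937682-118937931 (+) for Dnajc3 and chr8:84846932-84847181 (−) for Calr.
Syvn1: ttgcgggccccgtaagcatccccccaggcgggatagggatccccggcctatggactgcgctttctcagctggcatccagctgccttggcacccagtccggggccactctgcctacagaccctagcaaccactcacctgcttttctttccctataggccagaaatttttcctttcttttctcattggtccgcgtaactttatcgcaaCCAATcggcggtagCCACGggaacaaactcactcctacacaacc
Hspa5: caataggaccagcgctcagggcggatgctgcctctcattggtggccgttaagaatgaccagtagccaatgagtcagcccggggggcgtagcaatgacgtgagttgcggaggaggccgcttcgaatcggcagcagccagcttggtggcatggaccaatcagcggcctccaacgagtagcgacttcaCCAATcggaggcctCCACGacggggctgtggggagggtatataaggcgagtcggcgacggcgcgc
Dnajc3: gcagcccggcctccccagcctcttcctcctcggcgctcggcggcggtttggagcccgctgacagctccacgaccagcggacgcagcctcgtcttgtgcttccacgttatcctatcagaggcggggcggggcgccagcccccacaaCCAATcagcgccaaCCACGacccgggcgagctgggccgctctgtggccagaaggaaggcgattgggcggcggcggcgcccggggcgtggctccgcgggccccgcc
Calr: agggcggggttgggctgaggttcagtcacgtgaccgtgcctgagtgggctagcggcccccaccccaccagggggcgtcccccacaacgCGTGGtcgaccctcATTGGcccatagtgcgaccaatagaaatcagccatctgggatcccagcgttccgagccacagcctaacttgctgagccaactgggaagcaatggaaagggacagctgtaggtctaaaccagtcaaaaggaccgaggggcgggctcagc

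The remaining 6 matches, in 5 members, are given as the matched bases alone, written in the orientation of the motif. The search itself set the 2 half-sites and left the spacer free, so only the spacer could differ between matches. Hsp90b1 held 2 matches in opposite orientations.
Derl3: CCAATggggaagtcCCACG
Hsp90b1: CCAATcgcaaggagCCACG
Hsp90b1: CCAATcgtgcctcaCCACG
Canx: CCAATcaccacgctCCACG
Pdia6: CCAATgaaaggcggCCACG
Creld2: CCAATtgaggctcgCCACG

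The matches began 44 (Syvn1) to 212 (Hsp90b1) bases upstream of the start site. A related element, ERSE-II, searched as ATTGGNCCACG on both strands, lay in Herpud1, beginning 52 bases upstream, and in Dnajb11, 7 bases downstream of the start. It was present in 0.0365% of all promoters. The XBP1-binding UPRE, searched as TGACGTGG on both strands, lay in Sec24d only among the 27 and in 0.676% of all promoters. No member's promoter held more than 1 of the 3 motifs, although ERSE and ERSE-II share the CCACG half-site. A match describes the letters in the window and says nothing of binding in these cells.

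**Figure D1:**
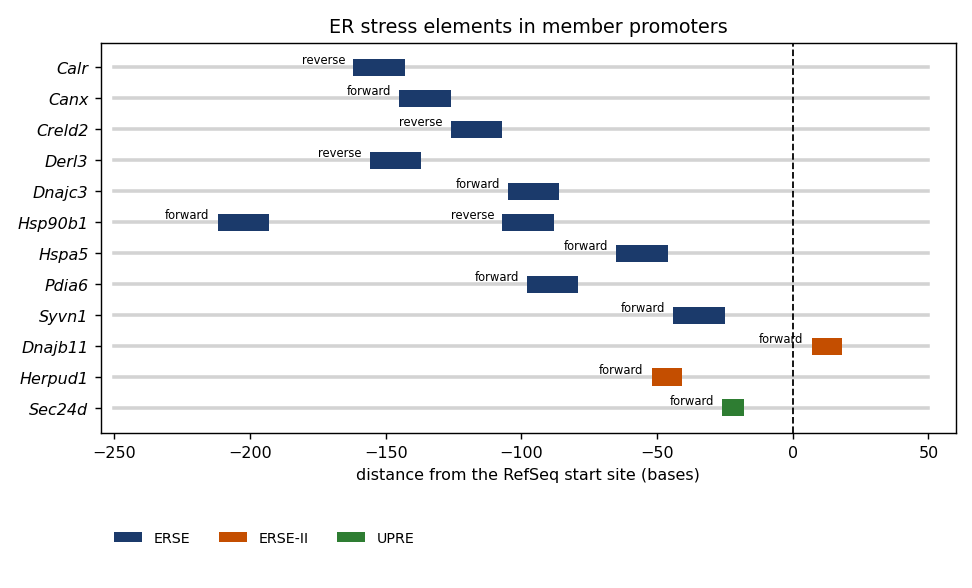
Positions of motif matches in the promoters of 12 members; the horizontal axis is the distance in bases from the RefSeq start site (dashed line), grey lines mark the window searched, and coloured blocks mark ERSE, ERSE-II and UPRE matches with their orientation. The 10 ERSE matches all lie upstream of the start, and the ERSE-II match of Dnajb11 lies just downstream of it.

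Rictor itself was measured at 3.14, 3.08, 2.80 and 2.17 FPKM in control and 2.75, 2.33, 2.57 and 2.22 FPKM in cKO on water. The groups overlapped, and the log2 fold change was -0.13 (limma, adjusted p = 0.582). After DSS it was 3.85, 3.69, 2.82 and 4.16 FPKM in control and 2.96, 2.78, 1.92 and 2.36 FPKM in cKO, a log2 fold change of -0.40 (adjusted p = 0.0761). A gene-level value does not isolate the deleted exons, so these levels do not check the genotype labels.

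Libraries held 13911823 to 16414914 reads recovered from the FPKM values. All 11 epithelial markers were present in every library, with Epcam at 639 to 866 FPKM. Several other measures moved with DSS. Reads from 4 Y-linked genes were 0 to 1377 and 0 to 1856 in the control and cKO water libraries, where 3 libraries had none, and 2681 to 4533 in every DSS library. Xist was 33.2 to 104.9 FPKM on water, 20.5 FPKM in control replicate 2 after DSS and 0 to 0.0268 FPKM in the other DSS libraries, so sex-linked transcripts differed by treatment. Y-linked reads and Xist at 20.5 FPKM or more were found together in 6 libraries, 5 of them on water. The labels do not say whether a library pools animals, and if so, n counts pools and the SD is that between pools. The clock output gene Dbp fell from 1.52 to 28.4 FPKM on water to 0.135 to 2.26 FPKM after DSS, and mitochondrial genes took 7.66% to 15.1% of reads on water and 4.74% to 7.34% after DSS. Fold changes also ran with the GC content of genes, with Spearman's rho across genes of -0.53 for DSS in control, 0.05 for DSS in cKO, -0.52 for genotype on water and 0.38 for genotype after DSS. Replicates 3 and 4 of cKO after DSS stood apart from the other libraries on the second principal component, at -33.9 and -32.2. The part that clock genes and the mitochondrial share have in the DSS results was not tested. Fits adjusted for the Y-linked level or for GC content are given with the counts they change.

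On water, control libraries expressed the members over a wide range. The isomerase P4hb (242 ± 18.7 FPKM, mean ± SD, n = 4), the lectin chaperone Calr (226 ± 21) and the isomerase Pdia3 (224 ± 37.3) were the most abundant per length, ahead of Hspa5 (130.0 ± 26). The sensors were far lower, at 8.79 ± 1.07 FPKM for Ern1, 7.02 ± 1.09 for Atf6 and 6.51 ± 0.992 for Eif2ak3, except the gut-specific sensor Ern2 at 35.7 ± 5.93. Creb3l1, an ER-membrane transcription factor related to ATF6, reached 119 ± 14.7 FPKM. In the order of mean level, 4 of the 33 neighbouring pairs had groups that did not overlap, namely Pdia3 over Hspa5, Canx over Xbp1, Dnajb11 over Ern2 and Eif2ak3 over Derl3. The ranges of the other 29 pairs overlapped, and their order within each library was not tested. Summed over the 34 genes, the level was 1836 ± 178 FPKM in control and 1711 ± 131 in cKO on water, and 2030.5 ± 39.3 and 2181 ± 132 after DSS.

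**Figure D2:**
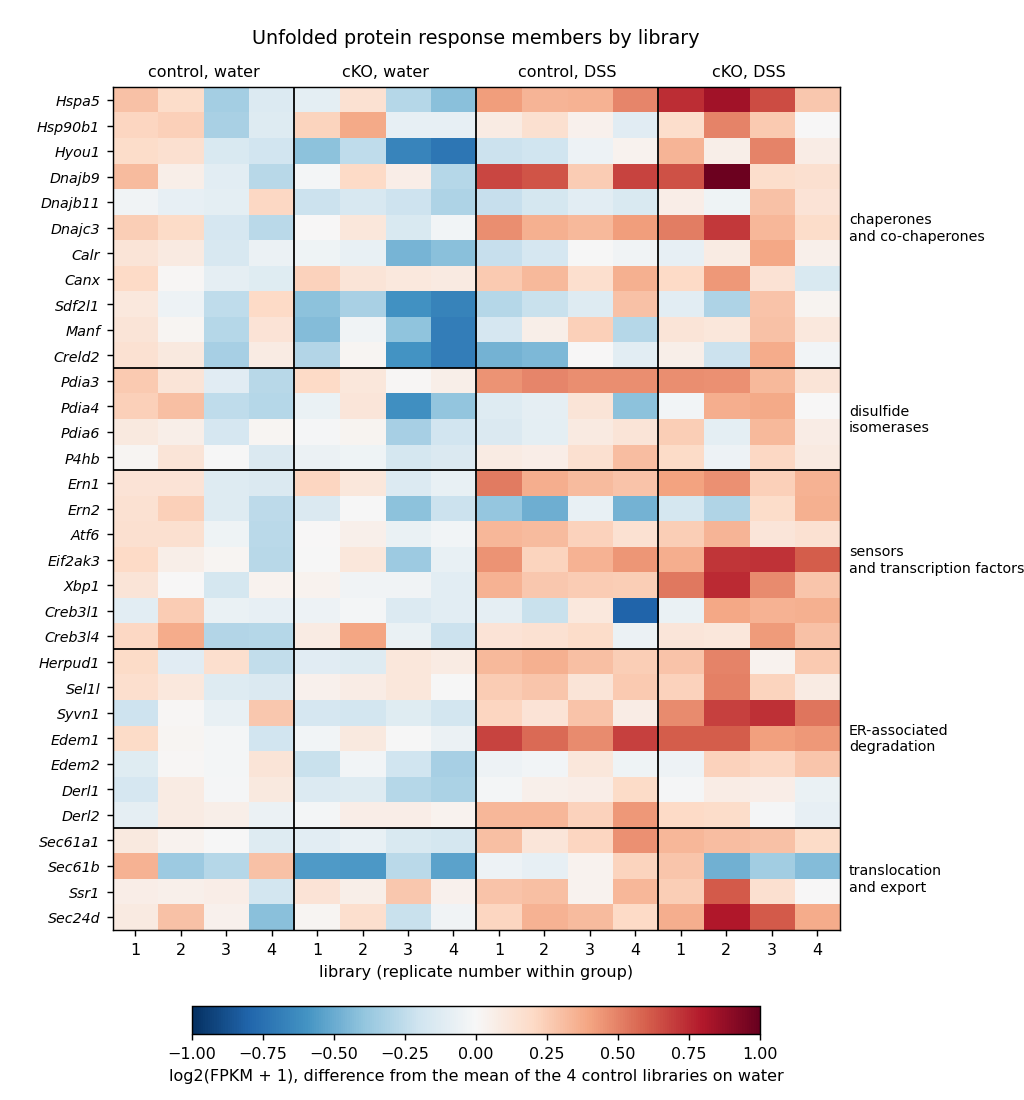
Each cell is log2(FPKM + 1) of 1 tested member in 1 library, less the mean of the 4 control libraries on water; rows are grouped by role, columns by group, and colours stop at -1 and 1. All 8 DSS libraries are red for Dnajc3, Ern1, Xbp1 and Edem1, and all 4 cKO water libraries are blue for Hyou1 and Sdf2l1.

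DSS was compared with water within each genotype, on log2(FPKM + 1) with limma over all 13255 genes and Benjamini-Hochberg adjustment; a gene is said to rise or fall only at an adjusted p under 0.05. Changes are log2 fold changes on this scale ± SE. In control mice 10 of the 33 members rose and none fell, and in cKO mice 14 rose and none fell. Of all 13255 genes, 28.5% changed in control and 15.0% rose, and in cKO 14.7% changed and 8.07% rose. The 10 members are 30.3% of those tested and the 14 are 42.4%. The median log2 fold change over the members was 0.18 in control, against -0.01 over all genes, and 0.34 in cKO, against -0.01. In control 22 of 33 log2 fold changes were positive, and in cKO all 33 were. Water and DSS libraries did not overlap for 11 of 33 members in control, against 3757 of all 13255 genes. In cKO they did not overlap for 15 of 33, against 2529 of all 13255. Higher after DSS without overlap were 10 members in control and 15 in cKO, against 2055 and 1340 of all genes. Xbp1, Ern1, Eif2ak3, Dnajc3, Edem1 and Sec61a1 rose in both genotypes, which is 60% of the control list and 42.9% of the cKO list. With the Y-linked level as a covariate, chosen after seeing the data, 1 member remained in each genotype, Edem1 in control and Syvn1 in cKO, against 6.51% and 2.26% of all genes. Y-linked reads did not overlap between water and DSS libraries, so this fit cannot tell a sex-linked difference from one of DSS. The 9 lost in control had log2 fold changes of 0.18 to 0.36, with adjusted p-values of 0.0588 to 0.352, and the 13 lost in cKO of 0.11 to 0.52, with adjusted p-values of 0.0966 to 0.726. The members that rose had a median GC content of 46.6% in control, against 50.6% for the rest, and of 51.1% against 48.9% in cKO. With each library corrected for GC content, 9 members rose in control, 6 of them among the 10, and 18 in cKO, against 19.3% and 19.2% of all genes changed. Atf6, Derl2, Dnajb9 and Dnajc3 were lost in control and Herpud1, P4hb and Syvn1 were added, and in cKO Atf6, Calr, Derl1 and Dnajb9 were added to the 14. Of tested members with a promoter, 1 of 8 with an ERSE and 7 of 18 without rose in control, and 3 of 8 and 8 of 18 rose in cKO. Bulk RNA cannot tell fewer cells of a type from less RNA per cell.

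**Figure D3:**
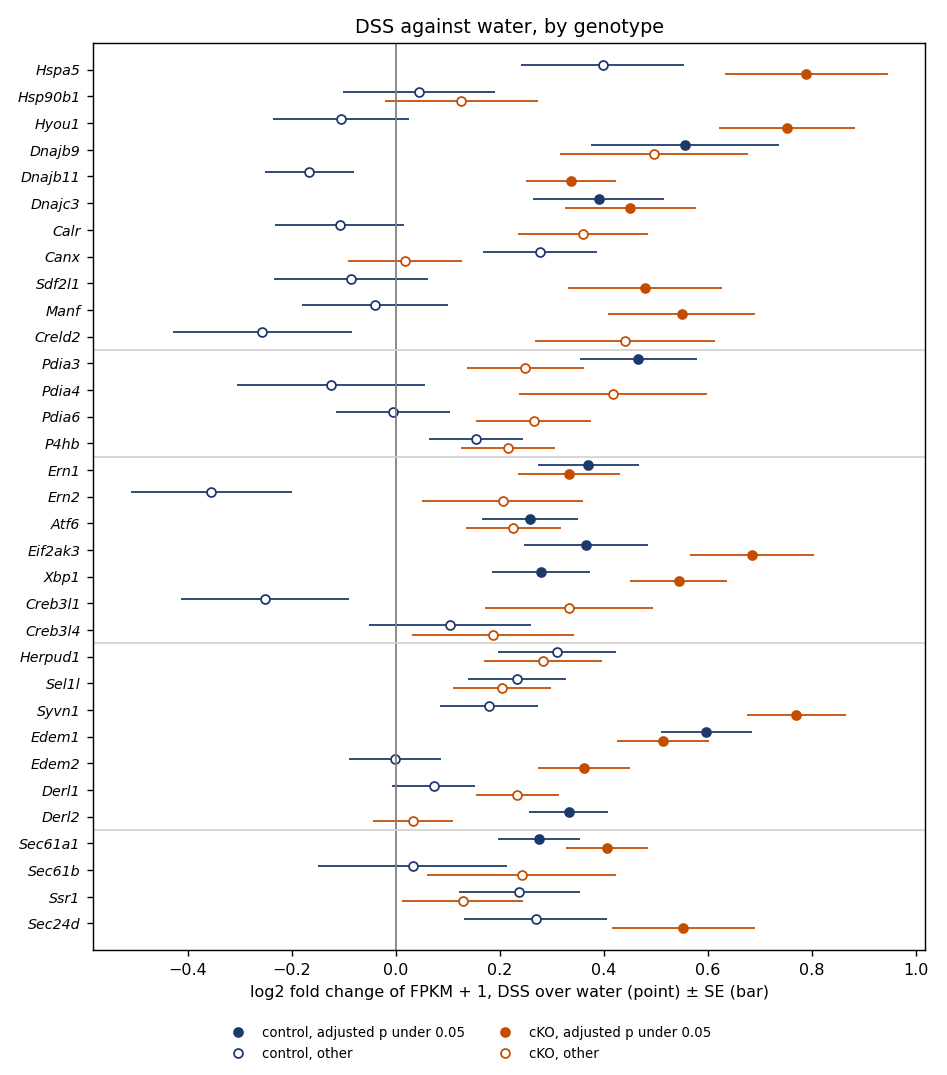
Log2 fold change of FPKM + 1, DSS over water, with its standard error for each of the 33 tested members in control (blue) and cKO (orange); filled points passed an adjusted p of 0.05 and horizontal lines separate the roles. All orange points lie to the right of 0, whereas 11 of the blue points lie to the left.

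Among the chaperones, 2 of 11 rose in control (Dnajb9, Dnajc3) and 6 of 11 in cKO (Hspa5, Hyou1, Dnajb11, Dnajc3, Sdf2l1, Manf). Hspa5, the ER Hsp70 that holds the sensors inactive (chr2:34771970-34777547 in mm10), was at 157, 145, 101 and 116 FPKM in control on water and 171, 163, 163 and 179 after DSS. In cKO it was at 119.6, 142, 105 and 95.4 on water and 215, 229, 202 and 154 after DSS. Every DSS library lay above every water library of its genotype. The log2 fold change of 0.40 ± 0.16 (adjusted p = 0.0683) in control missed the threshold, and that of 0.79 ± 0.16 (adjusted p = 0.00422) in cKO, a 1.73-fold ratio of means, passed it. With the Y-linked covariate the cKO value was 0.36 ± 0.16 (adjusted p = 0.292). Hsp90b1, the Hsp90 of the ER, overlapped between water and DSS in both genotypes, with log2 fold changes of 0.04 ± 0.15 (adjusted p = 0.844) and 0.13 ± 0.15 (adjusted p = 0.627).

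Hyou1, an Hsp110-family partner that exchanges nucleotide on BiP, was at 14.6, 16.4, 12.1 and 11.6 FPKM in cKO on water and 25.2, 20.6, 28.2 and 20.8 after DSS. In control it was at 22.5, 22.2, 17.7 and 17.1 on water and 16.9, 17.1, 19 and 20.2 after DSS. The cKO libraries separated completely and the control libraries overlapped. Its log2 fold changes were 0.75 ± 0.13 (adjusted p = 0.0018) in cKO, which the Y-linked covariate brought to 0.47 ± 0.16 (adjusted p = 0.145), and -0.11 ± 0.13 (adjusted p = 0.57) in control. The J-domain protein Dnajb11, a BiP co-chaperone, went from 39.6, 41, 39.6 and 36.8 to 48, 44.7, 56.4 and 50.7 FPKM in cKO. In control it went from 44.9, 43.4, 42.9 and 53.3 to 39, 40.5, 42.6 and 41.3. The DSS libraries were thus all above the water libraries in cKO, with a log2 fold change of 0.34 ± 0.09 (adjusted p = 0.0172). In control they were all below, the nearest by less than 1 FPKM, and the log2 fold change of -0.17 ± 0.09 (adjusted p = 0.156) did not pass.

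Sdf2l1, which works with Dnajb11, and the BiP-binding secreted factor Manf rose in cKO. There Sdf2l1 was at 20.1 to 25.8 FPKM on water and 26.2 to 39.8 after DSS, and Manf at 10.7 to 17.4 and 19.2 to 22.1. Neither gene's cKO groups overlapped, and the log2 fold changes were 0.48 ± 0.15 (adjusted p = 0.0417) and 0.55 ± 0.14 (adjusted p = 0.0174). In control they were -0.09 ± 0.15 (adjusted p = 0.688) and -0.04 ± 0.14 (adjusted p = 0.855), with overlapping groups. Under the 11 alternative settings given below, the cKO call was kept in 4 for Sdf2l1 and in 9 for Manf. Among those that lost Sdf2l1 were quantile normalization, voom on recovered reads and the fit of only the 8 libraries compared. Creld2, an ER protein known to be induced by ER stress, had log2 fold changes of 0.44 ± 0.17 (adjusted p = 0.102) in cKO and -0.26 ± 0.17 (adjusted p = 0.274) in control.

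Dnajc3, the co-chaperone also known as an inhibitor of PERK, was at 34.2, 33, 25.5 and 23.6 FPKM in control on water and 40.0, 37.1, 36.1 and 38.7 after DSS. In cKO it was at 28.8, 31.2, 25.8 and 28.1 on water and 41.3, 47.6, 36.4 and 32.9 after DSS. Neither pair of groups overlapped, and the log2 fold changes of 0.39 ± 0.13 (adjusted p = 0.0328) and 0.45 ± 0.13 (adjusted p = 0.0265) both passed. Dnajb9, a J-domain protein that keeps BiP on IRE1, rose in control by 0.56 ± 0.18 (adjusted p = 0.0336) and in cKO gave 0.50 ± 0.18 (adjusted p = 0.0792). Its ranges overlapped in both genotypes, at 17 to 26.2 against 25 to 33.9 FPKM in control. After GC correction the control values no longer passed, at 0.17 ± 0.09 (adjusted p = 0.215) for Dnajc3 and 0.28 ± 0.12 (adjusted p = 0.12) for Dnajb9, and Dnajb9 passed in cKO, at 0.50 ± 0.12 (adjusted p = 0.0111). The lectin chaperones gave -0.11 ± 0.12 (adjusted p = 0.538) and 0.36 ± 0.12 (adjusted p = 0.0657) for Calr and 0.28 ± 0.11 (adjusted p = 0.0697) and 0.02 ± 0.11 (adjusted p = 0.942) for Canx, in control and cKO in that order.

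**Figure D4:**
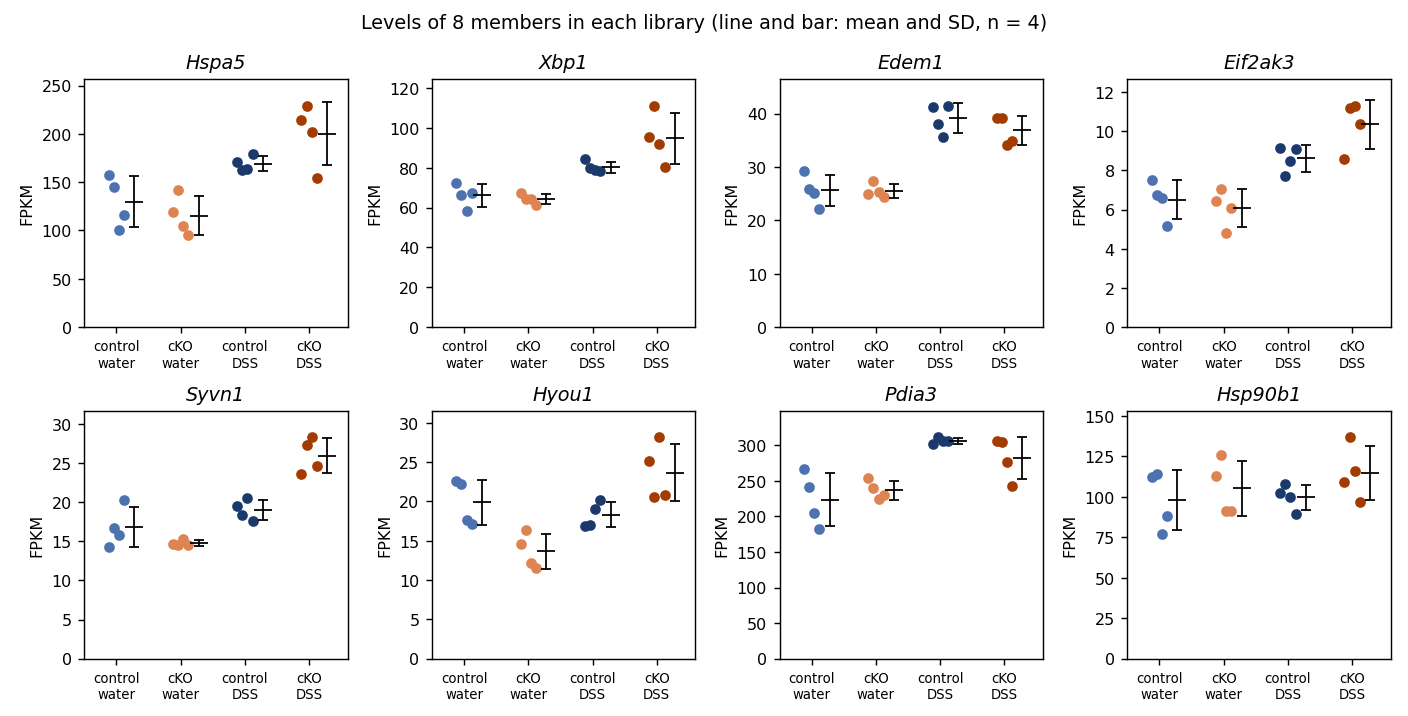
FPKM of 8 members in each library (points) by group, with the mean and SD of the 4 libraries beside them; axes start at 0. Edem1 is higher after DSS in both genotypes, Syvn1 and Hyou1 are highest in cKO after DSS, Pdia3 is tight at 302 to 312 FPKM in control after DSS, and Hsp90b1 overlaps throughout.

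Of the 4 disulfide isomerases, Pdia3 rose in control. None of the 4 passed in cKO by limma, although all 4 had an unadjusted p under 0.05, as did 3802 of all 13255 genes. Pdia3 was at 266, 242, 205 and 182 FPKM on water and 302, 312, 306 and 306 after DSS, groups that did not overlap, with a log2 fold change of 0.47 ± 0.11 (adjusted p = 0.00917). In cKO it was at 224 to 254 and 243 to 306 FPKM, and the log2 fold change was 0.25 ± 0.11 (adjusted p = 0.16). The difference between the genotypes was itself -0.22 ± 0.16 (adjusted p = 0.413), so the 2 genotypes were not shown to differ. Pdia4, Pdia6 and P4hb gave log2 fold changes of -0.12, -0.01 and 0.15 in control and 0.42, 0.26 and 0.21 in cKO, none past the threshold.

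The sensors and transcription factors gave 4 of 7 higher in control (Ern1, Eif2ak3, Atf6, Xbp1) and 3 of 7 in cKO (Ern1, Eif2ak3, Xbp1). Eif2ak3, the kinase PERK, was at 7.54, 6.76, 6.57 and 5.16 FPKM in control on water and 9.16, 7.70, 8.50 and 9.11 after DSS. In cKO it was at 6.43, 7.06, 4.79 and 6.07 on water and 8.61, 11.2, 11.3 and 10.4 after DSS. Neither genotype's groups overlapped, and the log2 fold changes were 0.37 ± 0.12 (adjusted p = 0.0337) and 0.69 ± 0.12 (adjusted p = 0.0018). Xbp1, whose spliced product drives chaperone and ERAD genes, was at 72.4, 66.3, 58.4 and 67.5 FPKM in control on water and 84.3, 79.7, 78.7 and 78.4 after DSS. In cKO it was at 67.5, 64.3, 64.2 and 61.4 on water and 95.6, 111, 92.1 and 80.3 after DSS. Both genotypes again separated, with log2 fold changes of 0.28 ± 0.09 (adjusted p = 0.038) and 0.54 ± 0.09 (adjusted p = 0.00169). Gene-level values do not distinguish spliced from unspliced Xbp1.

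Ern1, the widely expressed IRE1, was at 9.73, 9.71, 7.92 and 7.81 FPKM in control on water and 13, 11.5, 11.1 and 10.9 after DSS. The cKO libraries held 10.3, 9.55, 7.85 and 8.24 on water and 11.9, 12.4, 10.5 and 11.4 after DSS. Water and DSS libraries did not overlap in either genotype. The log2 fold changes were 0.37 ± 0.10 (adjusted p = 0.0137) and 0.33 ± 0.10 (adjusted p = 0.0337). Atf6 rose in control by 0.26 ± 0.09 (adjusted p = 0.047) and gave 0.23 ± 0.09 (adjusted p = 0.115) in cKO. After GC correction these were 0.12 ± 0.07 (adjusted p = 0.281) and 0.24 ± 0.07 (adjusted p = 0.036). Ern2, the IRE1 of mucus-producing epithelia, passed in neither genotype. It was at 39.4, 41.8, 32.2 and 29.2 FPKM in control on water and 26.8, 24.9, 33.4 and 25.2 after DSS, and its log2 fold changes were -0.36 ± 0.15 (adjusted p = 0.0957) in control and 0.20 ± 0.15 (adjusted p = 0.421) in cKO. Creb3l1 gave -0.25 ± 0.16 (adjusted p = 0.254) and 0.33 ± 0.16 (adjusted p = 0.188), with 1 control DSS library at 67.5 FPKM and the other three between 101 and 127. Creb3l4, a related factor, gave 0.10 and 0.19.

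ERAD returns misfolded proteins to the cytosol, and 2 of its 7 tested genes rose in control (Edem1, Derl2) and 3 in cKO (Syvn1, Edem1, Edem2). Edem1, a lectin that hands misfolded glycoproteins to ERAD (chr6:108828641-108859356 in mm10), was at 29.3, 25.9, 25.1 and 22.2 FPKM in control on water and 41.3, 38.2, 35.7 and 41.5 after DSS. In cKO it was at 25, 27.3, 25.4 and 24.4 on water and 39.2, 39.2, 34.2 and 34.9 after DSS. No water library reached any DSS library in either genotype. The log2 fold changes were 0.60 ± 0.09 (adjusted p = 0.000636) in control and 0.51 ± 0.09 (adjusted p = 0.00164) in cKO, and with the Y-linked covariate 0.53 ± 0.11 (adjusted p = 0.0189) and 0.43 ± 0.13 (adjusted p = 0.0966).

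Syvn1, the membrane ubiquitin ligase HRD1 at the centre of ERAD (chr19:6046576-6053712 in mm10), was at 14.7, 14.6, 15.3 and 14.5 FPKM in cKO on water and 23.5, 27.3, 28.3 and 24.6 after DSS. In control it was at 14.3, 16.8, 15.8 and 20.3 on water and 19.5, 18.4, 20.5 and 17.6 after DSS. The cKO groups lay far apart and the control groups overlapped. Its log2 fold changes were 0.77 ± 0.09 (adjusted p = 0.000215) in cKO, a 1.76-fold ratio of means, and 0.18 ± 0.09 (adjusted p = 0.164) in control. With the Y-linked covariate the cKO value was 0.76 ± 0.14 (adjusted p = 0.0157). In control, correction of each library for GC content brought it to 0.42 ± 0.09 (adjusted p = 0.00565).

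Edem2, the mannosidase that starts glycan trimming for ERAD, rose in cKO by 0.36 ± 0.09 (adjusted p = 0.0141). It was at 12.7, 14.7, 12.9 and 11.7 FPKM on water and 14.4, 17.8, 17.5 and 18.4 after DSS, with a slight overlap. In control it gave an adjusted p of 0.988. Derl2, a derlin, rose in control by 0.33 ± 0.08 (adjusted p = 0.00742), from 6.38, 7.33, 7.17 and 6.56 to 8.89, 8.86, 8.20 and 9.60 FPKM without overlap, and gave 0.03 ± 0.08 (adjusted p = 0.825) in cKO. After correction for GC content the control value was 0.10 ± 0.06 (adjusted p = 0.228). Herpud1 and Sel1l, the scaffold and adaptor of HRD1, gave 0.31 ± 0.11 (adjusted p = 0.053) and 0.23 ± 0.09 (adjusted p = 0.0761) in control and 0.28 ± 0.11 (adjusted p = 0.112) and 0.20 ± 0.09 (adjusted p = 0.168) in cKO. Derl1 gave 0.07 ± 0.08 (adjusted p = 0.517) and 0.23 ± 0.08 (adjusted p = 0.0634).

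For translocation and export, Sec61a1, the pore subunit of the Sec61 channel, rose in both genotypes, by 0.27 ± 0.08 (adjusted p = 0.0201) and 0.41 ± 0.08 (adjusted p = 0.00381). It was at 34.6, 33, 32.1 and 29.4 FPKM in control on water and 39.8, 35.1, 37.6 and 44.6 after DSS, and at 29.8, 30.5, 28.9 and 28.5 on water and 40.8, 40.0, 39.6 and 36.9 after DSS in cKO. Neither pair of groups overlapped. Sec24d, a cargo adaptor of COPII vesicles, rose in cKO from 11.4, 12.8, 9.47 and 10.9 to 14.7, 20.3, 17.7 and 14.8 FPKM, by 0.55 ± 0.14 (adjusted p = 0.0149), and gave 0.27 ± 0.14 (adjusted p = 0.153) in control. Sec61b, the small channel subunit, and Ssr1, of the translocon-associated complex, overlapped in both genotypes, with log2 fold changes of 0.03 and 0.24 in control and 0.24 and 0.13 in cKO.

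The control count rested on single libraries more than the cKO count. Without control replicate 3 or 4 on water it was 6 or 5 members, against 18.8% and 18.4% of all genes. Without replicate 1 it was 14, against 28.4%. Without replicate 1, 2 or 4 of control after DSS it was 4, 6 or 4, against 16.9%, 18.5% and 19.3% of all genes. Edem1, Derl2, Pdia3 and Ern1 passed in control with each of the 16 libraries left out. Sec61a1 was lost in 3 of these 16 fits, Eif2ak3 in 4, Dnajc3 in 5, Dnajb9 and Xbp1 in 6 each and Atf6 in 12, with adjusted p-values of at most 0.0617, 0.106, 0.102, 0.0993, 0.117 and 0.142. Each of these 6 was lost without control replicate 4 on water and without replicates 1 and 4, each in turn, of control after DSS.

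The cKO count stayed at 11 to 15 except without cKO replicate 4 on water, when it was 9, and was 11 without replicates 3 and 4 of cKO after DSS together. Of all genes 9.85% and 13.5% changed in those fits, in that order. Hspa5, Hyou1, Eif2ak3, Xbp1, Syvn1, Edem1, Edem2, Sec61a1 and Sec24d passed in cKO in all 16 fits. Manf was lost in 1, without cKO replicate 4 on water (adjusted p = 0.0602). Dnajb11 was lost in 2, without that library or replicate 3 of cKO after DSS, with an adjusted p of at most 0.0564. Dnajc3 and Ern1 were lost in 5 each and Sdf2l1 in 9, with adjusted p-values of at most 0.0771, 0.103 and 0.117, and all 3 were lost without cKO replicates 3 or 4 on water.

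Whether DSS acted differently in the 2 genotypes was tested by the interaction term. No member passed, against 0.151% of all genes. By limma 11 of 33 had an unadjusted p under 0.05, as did 3074 of all 13255 genes. Voom on the recovered reads also called none. The median difference over the members, cKO minus control, was 0.21, against -0.01 over all genes, and 23 of 33 were positive. By role it was 0.47 for chaperones, 0.17 for isomerases, 0.27 for sensors and transcription factors, -0.03 for ERAD and 0.17 for translocation and export. Of the 7 wider ER lists described below, the PERK genes had a median of 0.34 and the rest had medians of -0.14 to 0.04. Marker lists of several cell types also had non-zero medians in this term. The median was 0.38 for 11 epithelial markers, 9 of them positive, 0.33 for 10 goblet markers, 8 positive, and 0.54 for 7 enteroendocrine markers, 6 positive. It was -0.53 for 4 fibroblast markers, none positive, and -0.54 for 6 plasma cell markers, 1 positive, and no marker passed. Their part in the members' shift was not tested. The smallest p-values belonged to Hyou1, at 0.86 ± 0.18 (adjusted p = 0.0606), Syvn1, at 0.59 ± 0.13 (adjusted p = 0.0701), and Dnajb11, at 0.50 ± 0.12 (adjusted p = 0.0726). Each of these 3 passed when replicate 1 or replicate 2 of cKO after DSS was left out, with Hyou1 at an adjusted p of 0.0427 and 0.0195. Those fits called 3 of 33 members each, against 2.96% and 9.35% of all genes. So the members called in 1 genotype alone were not shown to differ between genotypes. The interaction log2 fold changes correlated with GC content across genes (Spearman's rho 0.59), and after GC correction the members' median was 0.22, again with none called.

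cKO was compared with control within each treatment. On water none of the 33 members differed, against 0.0905% of all genes. By limma 8 of 33 had an unadjusted p under 0.05, as did 2404 of all 13255 genes, and voom on recovered reads also called none. The log2 fold change was negative for 25 of 33, with a median of -0.08, against 0.01 over all genes. Under quantile normalization the members' median was -0.02 and 5 had an unadjusted p under 0.05. The smallest p-values were those of Hyou1, at -0.51 ± 0.13 (adjusted p = 0.124), Sdf2l1, at -0.50 ± 0.15 (adjusted p = 0.144), and Manf, at -0.39 ± 0.14 (adjusted p = 0.196). Sdf2l1 was at 35.1, 31.4, 27.2 and 37.5 FPKM in control and 24.2, 25.8, 21 and 20.1 in cKO. Every cKO library lay below every control library for Hyou1, Sdf2l1 and Dnajb11, that is for 3 of 33 members, against 7.65% of all genes. The reverse held for no member.

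After DSS 1 member was higher in cKO and none lower, against 3.70% of all genes changed, and 7 of 33 had an unadjusted p under 0.05, as did 2684 of all 13255 genes. That member was Syvn1, with a log2 fold change of 0.43 ± 0.09 (adjusted p = 0.0261) and no overlap between 17.6 to 20.5 FPKM in control and 23.5 to 28.3 in cKO. The call was lost without replicate 1, 2 or 4 of control after DSS and without replicate 3 or 4 of cKO after DSS, with an adjusted p of at most 0.0894 (without control replicate 2). It was also lost with only these 8 libraries in the fit, without replicates 3 and 4 of cKO after DSS, and after GC correction, at 0.31 ± 0.09 (adjusted p = 0.0613). Next came Derl2, at -0.26 ± 0.08 (adjusted p = 0.0709), and Dnajb11, at 0.28 ± 0.09 (adjusted p = 0.0833). Hyou1, Dnajb11, Syvn1 and Sec24d, 4 of 33 members, had every cKO library above every control library, against 5.12% of all genes. Derl2 had the reverse order. The median over members was 0.13, against -0.01 over all genes. Both genotype comparisons share libraries with the DSS comparisons, so their values are not independent of those.

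**Figure D5:**
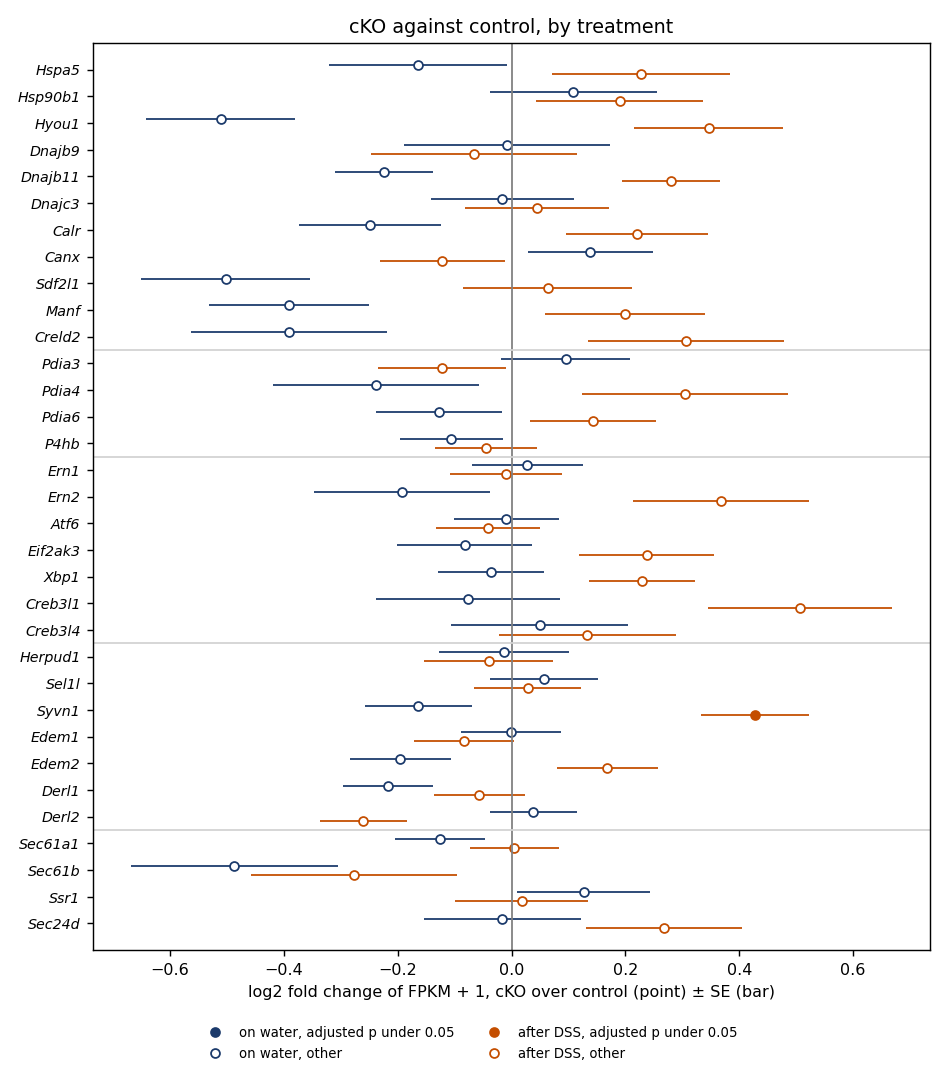
Log2 fold change of FPKM + 1, cKO over control, with its standard error for each of the 33 tested members on water (blue) and after DSS (orange); the filled point passed an adjusted p of 0.05. Hyou1, Sdf2l1 and Manf lie to the left of 0 on water, and the only filled point is Syvn1 after DSS.

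The wider ER pathway was followed through 7 further lists, named with the 2 smallest p-values for DSS in each genotype. Of their 126 tested genes, 48 changed in control (38.1%, against 28.5% of all genes) and 14 in cKO (11.1%, against 14.7%). With GC correction these counts were 32 and 27 (25.4% and 21.4%, against 19.3% and 19.2% of all genes), so the counts of the genotypes lay closer together under that setting. With the Y-linked covariate they were 5 and 1 (3.97% and 0.794%, against 6.51% and 2.26% of all genes), the one in cKO being Tmbim6. The control count was 22 to 28 without replicate 3 or 4 of control on water or replicate 1, 2 or 4 of control after DSS, each in turn, and the cKO count was 9 without cKO replicate 2 on water. Of all genes 16.9% to 19.3% and 10.9% changed in those fits. Of 26 tested other folding factors, 6 rose and 3 fell in control, led by the BiP relative Hspa13, at 0.62 (adjusted p = 0.00458), and the oxidase Ero1l, at 0.60 (adjusted p = 0.00585). After GC correction these were 0.34 (adjusted p = 0.00757) and 0.34 (adjusted p = 0.0132), and 5 of the list passed in control. In cKO 3 rose and 1 fell, led by Txndc11, at 0.39 (adjusted p = 0.000642), and the peroxiredoxin Prdx4, which fell, at -0.56 (adjusted p = 0.00624).

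Of 20 genes of the translocon, signal recognition particle and signal peptidase, 8 rose in control, led by Spcs2, at 0.38 (adjusted p = 0.00775), and Ssr3, at 0.55 (adjusted p = 0.00933). In cKO 1 rose, Spcs2, at 0.31 (adjusted p = 0.028), and Srpr gave 0.23 (adjusted p = 0.0607). The gap between the genotypes was not there after GC correction. In control 4 then rose (Ssr3, Ssr4, Srpr and Spcs2), with Ssr3 at 0.28 (adjusted p = 0.022). In cKO 5 rose (Ssr3, Srpr, Tram1, Spcs2 and Srprb) and Sec61g fell, at -0.54 (adjusted p = 0.0466). The cKO call of Spcs2 was lost in 4 of the 16 fits that left out 1 library, namely cKO replicate 2 or 4 on water or replicate 1 or 2 after DSS (adjusted p of at most 0.0869). Of 18 genes of N-glycan transfer and trimming, 5 rose and 1 fell in control, led by the catalytic subunit Stt3b, at 0.31 (adjusted p = 0.0134), and Tusc3, at 0.63 (adjusted p = 0.0145). In cKO none passed by limma or voom, 3 having an unadjusted p under 0.05, with Ddost at 0.24 (adjusted p = 0.0726) and Dpagt1 at 0.28 (adjusted p = 0.0994). GC correction called Magt1 there, at 0.29 (adjusted p = 0.0304), and brought Tusc3 in control to 0.37 (adjusted p = 0.0404).

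Of 20 other ERAD genes, 7 rose and 3 fell in control and 4 rose in cKO. Edem3, a paralogue of Edem1, rose in control, at 0.60 (adjusted p = 0.0016), and in cKO, at 0.54 (adjusted p = 0.0031). Of 21 COPII and retrieval genes, 7 rose in control, led by Sec24a, at 0.58 (adjusted p = 0.00531), and Bet1, at 0.63 (adjusted p = 0.00862), which GC correction brought to 0.38 (adjusted p = 0.00963) and 0.34 (adjusted p = 0.0183). In cKO 3 rose (Tmed10, Surf4 and Mcfd2), led by Tmed10, at 0.27 (adjusted p = 0.0166), and Surf4, at 0.29 (adjusted p = 0.0167). Tmed10 lost its call after GC correction, at 0.27 (adjusted p = 0.0647), when Surf4, Mcfd2, Kdelr2 and Sec23b passed. Of 13 further regulators of the response, 4 rose in control, led by Tmem33, at 0.69 (adjusted p = 0.00432), and Mbtps2, the protease that releases ATF6, at 0.45 (adjusted p = 0.0249). After GC correction Tmem33 was at 0.39 (adjusted p = 0.00986) and Mbtps2 no longer passed, at 0.17 (adjusted p = 0.193). The Mbtps2 call was also lost without replicate 3 or 4 of control on water or replicate 1, 2 or 4 of control after DSS (adjusted p of at most 0.0794). In cKO 2 rose, Tmbim6, at 0.42 (adjusted p = 0.00399), and Creb3l2, at 0.38 (adjusted p = 0.0375). Creb3l2 was lost without cKO replicate 2, 3 or 4 on water or replicate 1, 2 or 4 after DSS (adjusted p of at most 0.0897). The other uncorrected calls given with a value in these 6 lists passed with each library left out.

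Genes of the PERK branch, which signals through phosphorylated eIF2α and Atf4, were read as a further list. In control 3 of the 8 tested fell, namely Atf4, at -0.51 (adjusted p = 0.0443), Ddit3, which encodes CHOP, at -0.49 (adjusted p = 0.0355), and Cebpb, at -0.96 (adjusted p = 0.0245). Ppp1r15b, an eIF2α phosphatase subunit, rose, at 0.50 (adjusted p = 0.00388). After GC correction Atf4 and Cebpb no longer passed, at -0.31 (adjusted p = 0.15) and -0.39 (adjusted p = 0.174), and Ddit3 did, at -0.64 (adjusted p = 0.0252). With 1 library left out, Ddit3 and Cebpb were lost in 5 of 16 fits each and Atf4 in 10, with adjusted p-values of at most 0.109, 0.0779 and 0.121, and all 3 were lost without replicate 3 or 4 of control on water or replicate 2 or 4 of control after DSS. None of the 8 passed in cKO by limma or voom, and 1 had an unadjusted p under 0.05, Ppp1r15b, at 0.29 (adjusted p = 0.0628). Cebpb gave 0.49 (adjusted p = 0.284). After GC correction Ppp1r15b passed in cKO, at 0.30 (adjusted p = 0.035).

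Markers of secretory and other cells were read beside these results. Goblet cell markers summed, in FPKM, to 2788 to 5990.3 on water in control, 3078 to 5199 on water in cKO, 3983 to 6138 after DSS in control and 4548 to 6293 after DSS in cKO. Of these 10 markers 3 rose in control and 4 rose and 1 fell in cKO after DSS. The goblet transcription factor Spdef was among those that rose in cKO, at 0.79 (adjusted p = 0.00349). After GC correction Spdef was at 0.74 (adjusted p = 0.0012) in cKO. There Spink4 fell, at -0.84 (adjusted p = 0.0272), and Tff3 gave -0.04 (adjusted p = 0.942). Of 7 tested enteroendocrine markers, 4 rose and 1 fell in control and 5 rose in cKO. Macrophage markers summed, in FPKM, to 35.2 to 48.8 on water in control, 39 to 58.4 on water in cKO, 65.6 to 79.3 after DSS in control and 69.8 to 103 after DSS in cKO, most of it Cd14, and 3 of 4 rose in each genotype, with 1 lower in control. Fibroblast markers summed, in FPKM, to 2.97 to 4.48 on water in control, 3.94 to 5.67 on water in cKO, 11.1 to 13.6 after DSS in control and 7.48 to 9.36 after DSS in cKO, and 4 of 4 rose in control and 3 of 4 in cKO. Plasma cells are rich in this same ER machinery, and 6 of their 11 listed markers were tested. Mzb1 and Tnfrsf17 were at 0 in 15 of 16 libraries. The immunoglobulin transcripts Igkc, Igha and Ighm were present in every library, at 4.66 to 35.6, 1.58 to 5.55 and 1.14 to 4.35 FPKM. The list summed, in FPKM, to 84 to 106 on water in control, 82.3 to 114 on water in cKO, 79.7 to 98.3 after DSS in control and 92.3 to 109.5 after DSS in cKO, most of it Sdc1, which epithelium also expresses. T cell markers had 1 of 5 lower in control and 1 of 5 higher in cKO. The part of goblet, enteroendocrine and stromal cells in the members' changes was not tested.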

How the data were processed

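The deposited table holds FPKM per gene for 16 RNA-seq libraries of mouse colonic epithelial cells, extracted with TRIzol per the labels' protocols. Per the labels' protocols, reads with adapter, with undetermined bases or of low quality were removed by the authors. Per the submitters' processing notes, featureCounts 1.5.0-p3, DESeq2 1.20.0 and mm10 were used. The aligner, the annotation and the use of strand in counting are not stated there, so reads of overlapping or antisense genes cannot be told apart. From the FPKM and gene length, whole reads, within 0.05 of a whole number, were recovered for 100% of values above 0.

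The 13255 genes that reached 1 FPKM in 4 or more libraries were fitted in limma 3.58.1 (R 4.3.3) on log2(FPKM + 1), with a mean-variance trend and all 16 libraries in 4 groups. Tests were two-sided, with Benjamini-Hochberg adjustment over all 13255 genes and a threshold of 0.05. Fold changes on this scale understate those of low genes. The fitting script was tested on simulated data. The members and the gene lists were chosen with earlier results of these data known. All members are accounted for, called members are given with values, and where fewer than 3 were called the 3 smallest p-values are given. Of other lists the 2 smallest p-values are given for DSS in each genotype, except for 1 gene that is not reported here. Alternatives were a pseudocount of 0.1, no filter or 5 FPKM, quantile normalization, voom on recovered reads, loess correction for GC content (97.1% of genes had a value), a replicate block, only the 8 libraries compared, left-out libraries and, added after seeing the data, a Y-linked covariate. Promoters are RefSeq's for GRCm38.p6.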

Additional observations from a re-analysis of the deposited data

Results flagged for a closer look

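In groups of 4 libraries, a gene was singled out where the gap between an extreme library and its nearest neighbour took up more of the group's range than Dixon's 95% critical value allows. Chance marks about 1 in 20 groups, and 10 of 136 were marked. The share was 0.937 for Ssr1 in control on water, where replicate 4 was lowest at 13.3 FPKM against 15.8 to 16.01, and 0.848 in control after DSS, where replicate 3 was lowest at 15.6 against 18.8 to 19.4. For Creb3l1 it was 0.916 in cKO after DSS, with replicate 1 lowest at 113 FPKM against 151 to 155, and 0.890 in control on water, with replicate 2 highest at 141 against 109.8 to 113. For Sec61b it was 0.881 in cKO on water, replicate 3 being highest at 39.8 FPKM against 32.1 to 33.04, and 0.862 in cKO after DSS, replicate 1 being highest at 58.6 against 34.4 to 37.8. Replicate 3 of control after DSS was lowest for Dnajb9, at 24.97 FPKM against 32.7 to 33.9 (share 0.872), and highest for Edem2, at 16.3 against 14.4 to 14.7 (share 0.838). Manf was highest in replicate 3 of cKO after DSS, at 22.1 FPKM against 19.2 to 19.7 (share 0.855). Creld2 was lowest in control replicate 3 on water, at 22.04 FPKM against 29.8 to 31.3 (share 0.8295).

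For Dnajb11 every DSS library lay above the water libraries in cKO and below them in control, where the change did not pass the threshold. The difference between the 2 fold changes was 0.50 ± 0.12 (adjusted p = 0.0726) by limma's interaction term, which did not pass the threshold.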

How the results depend on the processing

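None of the log2 fold changes followed, those of called members, of members with the smallest p-values and of genes of the 7 other ER lists given with an uncorrected value, reversed under the 10 or 11 alternatives run for each or in 16 fits that each left out 1 library. Members changed by DSS in control numbered 5 of 34 with no filter on low values, 3 without replicate 4 of control on water and replicate 2 of control after DSS, 1 with the Y-linked covariate and 4 to 14 with 1 library left out. By DSS in cKO they numbered 1 with the Y-linked covariate and 9 to 15 with 1 library left out. Members differing by genotype after DSS numbered 0 with only those 8 libraries fitted (0.724% of all genes), 0 without replicates 3 and 4 of cKO after DSS (0.249%), and 0 to 3 with 1 library left out. For genotype on water the count was 0 to 0 with 1 library left out. The interaction gave 1 member (Hyou1) with the filter at 5 FPKM, where 7723 genes were tested in place of 13255, and 0 to 3 with 1 library left out. The 3 came without replicate 1 or 2 of cKO after DSS, when 2.96% and 9.35% of all genes passed. GC correction left 9 members in control, 6 of them among the 10, and 18 in cKO, all 14 included. After DSS it replaced Syvn1 with Dnajb11. Of all genes tested, DSS changed 28.5% in control and 14.7% in cKO, against 6.51% and 2.26% with the Y-linked covariate and 8.90% and 4.80% with no filter. Voom gave 8 and 12 members for DSS in control and cKO. The cause of these changes was not tested, apart from the fewer genes or libraries that a setting itself fits.

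Edem1 in control and Syvn1 in cKO passed under all 11 alternatives and with each of 16 libraries left out. In cKO, Edem1, Xbp1, Hyou1, Eif2ak3, Sec61a1, Hspa5 and Sec24d were lost only with the Y-linked covariate, which ran with treatment. Same-numbered libraries of different groups correlated at -0.199 to 0.300, with a median of 0.0174, and 6 of 24 pairs were over 0.1. The 72 pairs of other numbers correlated at -0.251 to 0.276, with a median of -0.0187. Of 16 libraries, 9 correlated best with a library of their own number. The labels do not say what a number marks, and these values do not settle whether it pairs libraries. With the number as a replicate block, the counts were 11 and 14 for DSS in control and cKO, 0 and 1 for genotype on water and after DSS, and 0 for the interaction. Low depth limits Derl3, with at most 43 reads.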

Other observations

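Of the 126 tested genes of the wider ER lists, 5 differed between genotypes after DSS (3.97%), a share near the 3.70% of all genes and the 1 of 33 among the members. They are named because they were called, after their values were seen. Cebpb, a stress-responsive transcription factor, was at 16.9 ± 6.44 FPKM in cKO and 6.47 ± 2.50 in control (mean ± SD, n = 4), a log2 fold change of 1.24 (adjusted p = 0.0324). Rcn1, a calcium-binding protein of the ER lumen, was higher at 0.73 (adjusted p = 0.0276). Lower in cKO were Prdx4, at -0.47 (adjusted p = 0.0417), Selenos, a selenoprotein of the ERAD complex, at -0.48 (adjusted p = 0.03), and Sec61g, the third subunit of the Sec61 channel, at -0.74 (adjusted p = 0.0482). Voom called 4 of the 5, without Prdx4. After GC correction 3 passed, and Prdx4, at -0.41 (adjusted p = 0.0799), and Sec61g, at -0.66 (adjusted p = 0.0518), did not. Of 16 fits that each left out 1 library, Cebpb and Rcn1 were lost in 5, Selenos in 6, Prdx4 in 11 and Sec61g in 12. Each of the 5 was lost without replicate 1, 2 or 4 of control after DSS or replicate 4 of cKO after DSS, with adjusted p-values of at most 0.102, 0.0911, 0.0917, 0.104 and 0.146 in that order. No gene of the lists passed for the interaction by limma or voom. By limma 24 of the 126 had an unadjusted p under 0.05, as did 3074 of all 13255 genes. Without replicate 2 of cKO after DSS 12 of the 126 passed, against 9.35% of all genes. Without its replicate 1 the count was 3, against 2.96%. On water none of the 126 tested genes of the 7 lists differed between genotypes by limma or voom. By limma 23 had an unadjusted p under 0.05, as did 2404 of all 13255 genes.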
